A study of Mus musculus with 24 samples.

Results

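The response to proinflammatory cytokines was measured in a MIN6 line that overexpresses miR-146a-5p, by comparing the 4 libraries of cytokine-treated cells (OE+Cy) with the 4 libraries of the same line left untreated (OE). These 8 libraries were chosen by their labels from the 24 of the series, and none was left out. MIN6 is a mouse insulinoma line with β cell character. The OE cells carried a lentiviral shMIMIC vector with a Turbo RFP reporter, were selected with puromycin and had been expanded from single picked clones. For 24 h, OE+Cy cells were kept with IL-1β at 5 ng/ml, IFNγ at 100 ng/ml and TNFα at 10 ng/ml. The other 16 libraries came from a line with a scrambled sequence (Scr, Scr+Cy) and a line with an inhibitor of miR-146a-5p (ZIP, ZIP+Cy), untreated or given the same mixture, and they are used only where the response of OE cells is set beside theirs. Those lines carry a different vector backbone and are different clones, so clone, vector and miRNA level cannot be told apart in a difference between lines. Nothing in the labels says whether the libraries of a group came from separate cultures, and p values therefore measure the spread between these libraries, which may be technical.

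IFNγ signals through JAK kinases and STAT factors, which drive IRF1 and, through it, genes of antigen presentation and antiviral defence. IL-1β signals through MYD88, IRAK and TRAF6, and TNFα through its own receptors and the adaptors TRADD and TRAF2. Both reach NF-κB, which induces chemokines, Nos2 and its own inhibitors. In β cells this mixture is a widely used model of islet inflammation, in which nitric oxide, endoplasmic reticulum (ER) stress and loss of insulin gene expression are studied. miR-146a-5p is itself induced by NF-κB and is known for repressing Irak1 and Traf6.

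The mature miRNA that the OE vector supplies is shown first, since it defines the line. Its seed, bases 2 to 8, is in capitals, and the related mmu-miR-146b-5p is printed because it has the same seed. The sequences are those of RefSeq on GRCm38.p6, where mmu-miR-146a-5p lies at chr11:43374435-43374456 on the minus strand and mmu-miR-146b-5p at chr19:46342790-46342811 on the plus strand.
mmu-miR-146a-5p: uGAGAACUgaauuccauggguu
mmu-miR-146b-5p: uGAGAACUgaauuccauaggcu
The 0 genes of the count table that span the miR-146a locus leave the miRNA and its host transcript without a value here, so the OE label could not be checked on them.

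Promoters are shown for 3 genes that rose with the cytokines. Irf1 and Gbp2 are induced by IFNγ, and Nfkbia encodes the NF-κB inhibitor IκBα. Each promoter runs from 250 bases before to 50 bases after the RefSeq start (GRCm38.p6), and capitals mark matches on either strand to GAAANNGAA (a core of interferon-stimulated response elements), TTCNNNGAA (the gamma-activated site of IFNγ signalling) or GGGNNTTTC (an NF-κB-like core). Irf1 is at chr11:53769764-53770063 (plus strand), Gbp2 at chr3:142620413-142620712 (plus strand) and Nfkbia at chr12:55492598-55492897 (minus strand).
Irf1: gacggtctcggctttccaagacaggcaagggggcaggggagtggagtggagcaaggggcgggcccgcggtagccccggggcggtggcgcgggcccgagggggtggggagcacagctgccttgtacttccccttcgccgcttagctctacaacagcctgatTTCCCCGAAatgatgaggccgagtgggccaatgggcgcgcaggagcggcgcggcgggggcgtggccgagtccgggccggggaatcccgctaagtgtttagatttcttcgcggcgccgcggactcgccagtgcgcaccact
Gbp2: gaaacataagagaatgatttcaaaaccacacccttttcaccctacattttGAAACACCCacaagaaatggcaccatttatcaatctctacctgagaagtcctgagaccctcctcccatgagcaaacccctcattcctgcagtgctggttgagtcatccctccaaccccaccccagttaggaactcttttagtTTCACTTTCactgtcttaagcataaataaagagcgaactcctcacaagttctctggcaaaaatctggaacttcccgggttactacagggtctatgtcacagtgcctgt
Nfkbia: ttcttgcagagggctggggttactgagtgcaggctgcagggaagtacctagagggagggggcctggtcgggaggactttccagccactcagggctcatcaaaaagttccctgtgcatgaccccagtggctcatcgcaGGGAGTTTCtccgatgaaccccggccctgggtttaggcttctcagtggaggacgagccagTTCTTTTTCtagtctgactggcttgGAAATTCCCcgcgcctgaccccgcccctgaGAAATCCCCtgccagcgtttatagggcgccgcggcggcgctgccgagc
The Irf1 window held 1 gamma-activated site, the Gbp2 window 1 match to GAAANNGAA and 1 to GGGNNTTTC, and the Nfkbia window 3 matches to GGGNNTTTC and 1 to GAAANNGAA. Over all 32851 RefSeq promoters of the same length, GAAANNGAA was found in 8.56%, TTCNNNGAA in 8.3% and GGGNNTTTC in 4.36%. A match describes the letters only and does not mark a bound site.

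Between 29879853 and 37168232 reads per library were assigned to genes in OE and between 27721701 and 30972218 in OE+Cy. Levels are CPM, reads scaled to a common library size by the TMM method so that every library sums to about the same total. All 10 β cell markers were present in every library, with a summed level of 40112 to 43788 CPM in OE and 25357 to 33004 CPM in OE+Cy. Lymphocyte markers summed to at most 0.486 CPM and macrophage and blood markers to at most 4.91 CPM in any of the 8 libraries. Acinar and ductal markers summed to 477 to 590 CPM in OE and 426 to 636 CPM in OE+Cy, nearly all of it Krt19, Krt7 and Spp1. OE replicate 1 stood apart from the other untreated libraries in glycolysis genes and OE+Cy replicate 1 was lowest in MHC class II genes, and values without them are given beside those results.

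Cytokines changed 3720 of 17696 genes in OE cells, called where the fold change reached 1.5 and the p value before adjustment was under 0.05 (edgeR quasi-likelihood test), of which 2300 (13%) were higher and 1420 (8.02%) lower in OE+Cy. Of them, 3391 also had a Benjamini-Hochberg adjusted p value under 0.05. These shares of all genes are the background for the list counts of OE cells that follow, also where they are not repeated. Counts made without the fold change limit have no such background here. The rises were larger than the falls. Among the called genes, 1678 were more than 2-fold and 274 more than 32-fold higher, compared with 582 more than 2-fold and 124 more than 4-fold lower, and 573 of the higher genes had 3 reads or fewer in every OE library. The median log2 fold change of all genes was 0.02. Treated and untreated libraries were fully apart for 83.0% of the called genes and for 40.2% of all genes. In bulk RNA of this kind, fewer cells of a type and less RNA per cell cannot be told apart.

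**Figure D1:**
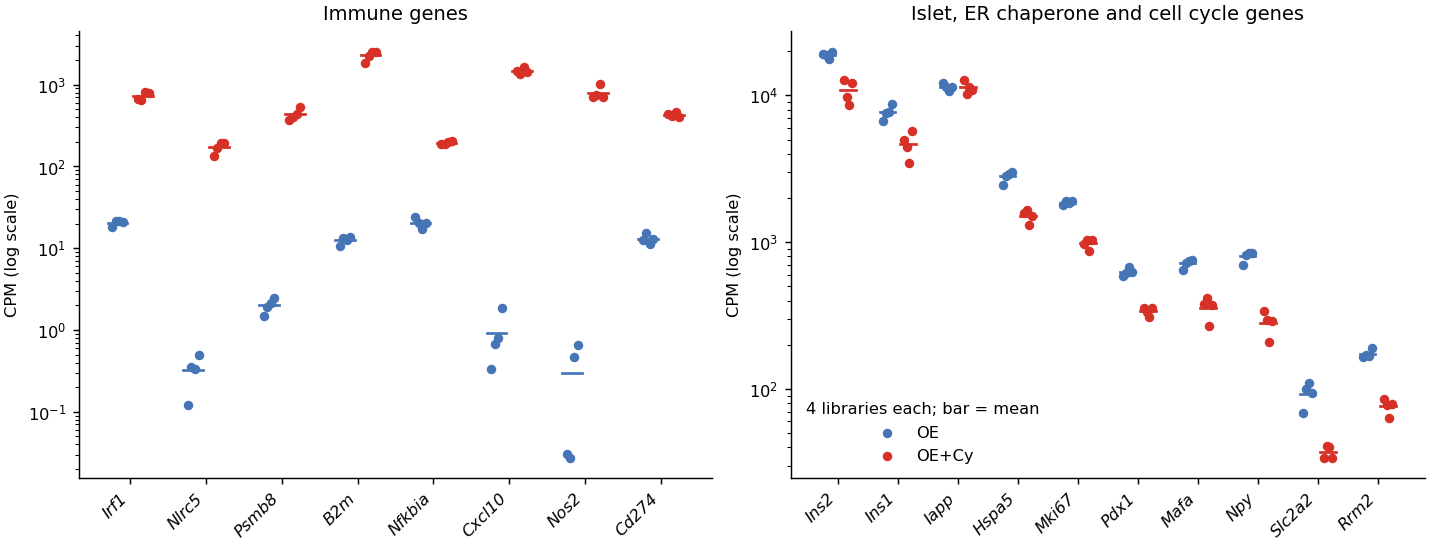
Level of 18 genes in each library, in CPM on a log axis, for untreated OE cells (blue) and OE+Cy cells (red), with a bar at the mean of 4 libraries. The 8 immune genes on the left lie far above their untreated level in OE+Cy, with the smallest log2 difference, 3.25, for Nfkbia, and on the right the groups are apart for every gene shown except Iapp.

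The interferon branch rose from its receptor to its transcription factors. Of 36 genes of interferon and STAT signalling, 19 rose and 1 fell, with a median log2 fold change of 0.66, and their summed level went from between 1282 and 1317 CPM to between 4595 and 5586 CPM. Irf1 (chromosome 11, 53770014 to 53778375, mm10), the transcription factor at the head of the IFNγ programme, was at 18.3, 21.8, 21.5 and 20.8 CPM in OE and at 662, 657, 810 and 789 CPM in OE+Cy. This is a log2 fold change of 5.15 ± 0.11 (SE, n = 4 and 4, adjusted p = 1.72e-20), and the groups lay far apart. Irf7, an amplifier of type I interferon signalling, rose from at most 2.30 CPM to between 173 and 261 CPM. Irf8, better known from myeloid cells, was at the detection limit of 3 reads in every OE library and at 7.09 to 17.2 CPM after treatment, at least 149-fold higher. Receptor chains and kinases moved as well, with log2 fold changes of 3.02 for Ifngr2, 1.68 for Jak2 and 3.81 for Stat2. Socs1, the feedback inhibitor of JAK kinases, rose by 5.77, and the 1 gene that fell was Socs2 (−0.76, adjusted p = 5.69e-07).

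Every one of 19 guanylate-binding proteins and immunity-related GTPases, the IFNγ-induced proteins that attack intracellular pathogens, rose in OE+Cy. Their median log2 fold change was 10.84, or 10.62 with genes at the detection limit set to their bound. Summed over the family, the level was 23.2, 27.1, 37.1 and 42.8 CPM in the 4 OE libraries and 17578, 16686, 19064 and 18267 CPM in the 4 OE+Cy libraries. The most abundant member described here, Tgtp1, was at 0.0604, 0.762, 1.24 and 2.59 CPM before and at 2642, 2512, 2685 and 2689 CPM after treatment (log2 fold change 11.17 ± 0.98, adjusted p = 1.61e-09). Without OE replicate 4 its log2 fold change was 11.86. Gbp2, whose promoter is printed above, went from 0, 0.408, 1.46 and 1.90 CPM to 1808, 1768, 2176 and 1998 CPM. Gbp8 and Gbp11 were not detected in any OE library and were at least 256-fold and 178-fold higher, and Gvin1 was at least 490-fold higher. These genes belong to families of near copies, so the division of reads among members is uncertain, and Tgtp1 and Tgtp2 in particular may share reads.

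Genes of antiviral defence followed. Of 41 interferon-stimulated genes, 39 rose and 0 fell, with a median of 4.67 on the log2 scale, and the 2 that were not called were Ifitm2 and Cgas. Isg15, a ubiquitin-like protein that is attached to viral and host proteins, was at 0.121, 0.136, 0.110 and 0.262 CPM in OE and 108, 110, 126 and 152 CPM in OE+Cy (9.62 ± 0.43 on the log2 scale, adjusted p = 5.48e-15). Zbp1, a sensor of Z-form nucleic acids that can start necroptosis, rose from at most 0.426 CPM to between 353 and 470 CPM, a log2 fold change of 11.10 that became 11.78 without OE replicate 4. Ifitm3, which blocks entry of viruses, was at least 268-fold higher. Smaller rises were seen for genes already expressed in untreated cells, such as Eif2ak2, the RNA-activated kinase PKR, which had 34.8 to 43.2 CPM in OE and reached 160 to 174 CPM (2.11 ± 0.09).

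Antigen presentation by MHC class I rose as a group. Of 25 class I and peptide supply genes, 22 rose and 1 fell, with a median log2 fold change of 4.14. B2m, the light chain of every class I molecule, was at 10.8, 13.5, 12.6 and 13.9 CPM in OE and at 1864, 2222, 2544 and 2486 CPM in OE+Cy (7.49 ± 0.39, adjusted p = 9.6e-14). The heavy chain gene H2-K1 already had 229 to 252 CPM and reached 2328 to 3611 CPM (3.68 ± 0.13). Tap1, which pumps peptides into the ER, rose from between 4.65 and 5.93 CPM to between 590 and 753 CPM. Nlrc5, the transactivator of class I genes, rose from at most 0.491 CPM to between 135 and 194 CPM. The immunoproteasome subunit Psmb8 (chromosome 17, 34198195 to 34201455) was at 1.48, 1.90, 2.12 and 2.49 CPM and then at 373, 405, 440 and 529 CPM (7.77 ± 0.30, adjusted p = 3.77e-16), and Psmb9 rose by 8.28 ± 0.24. In contrast, 0 of 31 subunits of the constitutive proteasome were called by edgeR or by DESeq2 (median 0.06). Without the fold change limit, 12 of the 31 were higher and 5 lower at an unadjusted p value under 0.05. The share of all genes without that limit was not counted. The 1 gene of the class I list that fell was Calr, an ER chaperone that also assists peptide loading (−0.77, adjusted p = 3.90e-05).

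MHC class II, which β cells normally lack, appeared at low to moderate levels. Of 13 genes, 11 rose and 0 fell, with a median of 7.78, or 6.56 with undetected genes at their bound. Its transactivator Ciita was at 0.121, 0.109, 0.166 and 0.0982 CPM in OE and at 13, 18, 32.8 and 30.7 CPM in OE+Cy (7.53 ± 0.47, adjusted p = 2.94e-12). The invariant chain Cd74 reached 268, 511, 812 and 755 CPM, and H2-Ab1, undetected in OE, reached 10.6, 24.9, 59.1 and 52.7 CPM, at least 417-fold higher. Ctss, the protease that trims the invariant chain, was also undetected before and at 2.88, 6.50, 14.3 and 9.72 CPM after treatment. OE+Cy replicate 1 was the lowest of the 4 treated libraries for each of these genes, and 11 of the 13 genes also rose without it. H2-Aa rose by 9.86 on the log2 scale, and by 11.84 without OE replicate 3. The markers of macrophages, blood and lymphocytes, cells that carry class II, were at the low sums given above, and none of the 4 lymphocyte markers in the table reached 1 CPM, although Cd4 and Cd79a were called higher at these traces. Their part in the class II values was not tested.

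NF-κB subunits and inhibitors rose in 17 of 21 cases and fell in 0, with a median log2 fold change of 1.94. Nfkbia was at 24.2, 20.2, 17.4 and 20.3 CPM in OE and at 190, 187, 198 and 204 CPM in OE+Cy (3.25 ± 0.11, adjusted p = 4.29e-17). Nfkbie, another inhibitor that holds NF-κB in the cytoplasm, rose by the same 3.25 ± 0.18. Feedback proteins rose too, with values of 2.86 for the deubiquitinase Tnfaip3 and 7.03 for Tnip3. Of 26 genes of IL-1, TNF, Toll-like receptor and IRAK signalling, 15 rose and 0 fell (median 0.78, or 0.69 with undetected genes at their bound). Tlr2 rose from at most 0.332 CPM to between 34.8 and 75.2 CPM, and Tlr3, which reads double-stranded RNA, rose by 4.09 ± 0.19.

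Members of the IRAK family, among them the known target of miR-146a, differed in direction. Irak1 was at 248, 252, 243 and 241 CPM in OE and at 187, 193, 166 and 177 CPM in OE+Cy, so the groups did not overlap, but its log2 difference of −0.45 ± 0.06 (adjusted p = 2.87e-06) was under the fold change limit and was not called. Traf6, the other known target, was at 57.9 to 61.7 CPM and 60.8 to 66 CPM, with a log2 difference of 0.10 ± 0.05 (adjusted p = 0.132). Irak2, a kinase that can stand in for Irak1 in late signalling, rose from 3.78, 2.26, 2.7 and 2.72 CPM to 9.83, 14.0, 19.8 and 11.1 CPM (2.26 ± 0.18, adjusted p = 2.62e-10). The difference between the responses of OE and Scr cells was −0.31 ± 0.09 for Irak1 (adjusted p = 0.0138) and 1.91 ± 0.25 for Irak2 (adjusted p = 1.92e-05). Against ZIP cells the difference for Irak1 was −0.20 ± 0.09 and was not called (adjusted p = 0.129), but passed when replicates were blocked by number (adjusted p = 0.0267) or without ZIP+Cy replicate 3 (adjusted p = 0.0413). Without OE 1, Scr 3 and ZIP 4, the untreated libraries that stand apart, the difference for Irak1 was no longer called (−0.26, adjusted p = 0.0726).

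Secreted signals were among the largest changes. Of 22 chemokines, 15 rose and 0 fell, with a median of 4.6 (2.18 with undetected genes at their bound). Cxcl10, which draws T cells that carry CXCR3, was at 0.332, 0.680, 0.800 and 1.87 CPM in OE and at 1458, 1335, 1642 and 1427 CPM in OE+Cy (10.67 ± 0.97, adjusted p = 3.12e-09). Cxcl11, a ligand of the same receptor, was undetected in OE and at 15.2 to 25.1 CPM after treatment, at least 222-fold higher. Of 24 cytokine genes, 17 rose and 2 fell (median 3.44, or 1.69 with bounds). Tnf had 3 reads or fewer in every OE library and was at 48.4, 39.4, 64.5 and 56.4 CPM after treatment, at least 591-fold higher. Il15, a growth factor of memory T cells and natural killer cells, was undetected before and at 1.63 to 3.22 CPM after treatment. The genes that fell were Tnfsf9 (−0.69, adjusted p = 7.11e-04) and Ebi3 (−0.79, adjusted p = 0.0737), and Ebi3 lost its call in 6 of the 8 fits that left out 1 library.

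Nos2, the inducible nitric oxide synthase, was at 0.0302, 0.0272, 0.469 and 0.655 CPM in OE and at 704, 741, 1008 and 712 CPM in OE+Cy. Its log2 fold change was 11.41 ± 0.65 (adjusted p = 5.84e-13), or 12.08 without OE replicate 4, and it was the 1 gene of 16 in the nitric oxide and arginine list that rose. Arg2 and Slc7a2, an arginase and the arginine carrier of β cells, fell by 0.94 and by 0.87. Over all genes, 13% were higher and 8.02% lower. Slc7a2 went from between 149 and 221 CPM to between 91.8 and 115 CPM.

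Complement and immune recognition genes also rose. Of 18 complement genes, 9 rose and 1 fell (median 2.93, or 0.52 with undetected genes at their bound). Over all genes, 13% were higher and 8.02% lower. Serping1, the inhibitor of the first complement component, rose from at most 0.851 CPM to between 368 and 514 CPM, and C1ra from at most 0.229 CPM to 38.3, 99.7, 140 and 124 CPM. C1qa fell from between 7.73 and 16.0 CPM to between 3.47 and 5.05 CPM (−1.40 ± 0.19). Of 18 immune recognition and checkpoint genes, 14 rose and 0 fell (median 2.85, or 2.07 with bounds). Cd274, which encodes the T cell inhibitor PD-L1, was at 12.6, 15.2, 11.4 and 12.8 CPM and then at 440, 415, 464 and 403 CPM (5.05 ± 0.21, adjusted p = 1.72e-15). Lgals9, a ligand of the checkpoint receptor TIM-3, rose from at most 0.327 CPM to between 161 and 302 CPM (11.31, or 12.93 without OE replicate 4). The adhesion molecule Icam1 rose from at most 0.950 CPM to between 194 and 349 CPM, whereas Vcam1, undetected before, stayed between 0.730 and 2.56 CPM.

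Cell death genes of several routes rose. Of 27 caspase, death receptor and necroptosis genes, 13 rose and 1 fell (median 0.62), against 13% of all genes higher and 8.02% lower. The inflammatory caspases had the largest rises, with Casp1 going from at most 0.295 CPM to between 14.3 and 29.5 CPM and Casp4 from at most 0.327 CPM to between 21.9 and 41.1 CPM (7.84, or 8.62 without OE replicate 4). Gsdmd, the pore protein they cleave, rose by 4.09, and the receptor gene Fas by 5.05. The gene that fell was Birc5, an inhibitor of apoptosis that is also a mitotic gene (−0.79).

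In the BCL2 family, 6 of 20 genes rose and 2 fell (median 0.32), against 13% of all genes higher and 8.02% lower. Bid, which links death receptors to mitochondria, was at 2.66, 3.62, 3.37 and 2.26 CPM and rose to 47.8, 51.3, 64.6 and 52.1 CPM (4.17 ± 0.15, adjusted p = 6.3e-17). Its rise was larger than in Scr cells by 2.39 ± 0.20 on the log2 scale (adjusted p = 3.45e-08). Bak1, a pore-forming member, rose by 1.71 ± 0.09 and Bbc3, another promoter of apoptosis, by 1.12 ± 0.16. The members that fell were Bnip3 and Bnip3l, receptors of mitophagy. For both, OE replicate 1 lay within the treated range, as described with the glycolysis genes. Both were still called in every fit that left out 1 library.

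**Figure D2:**
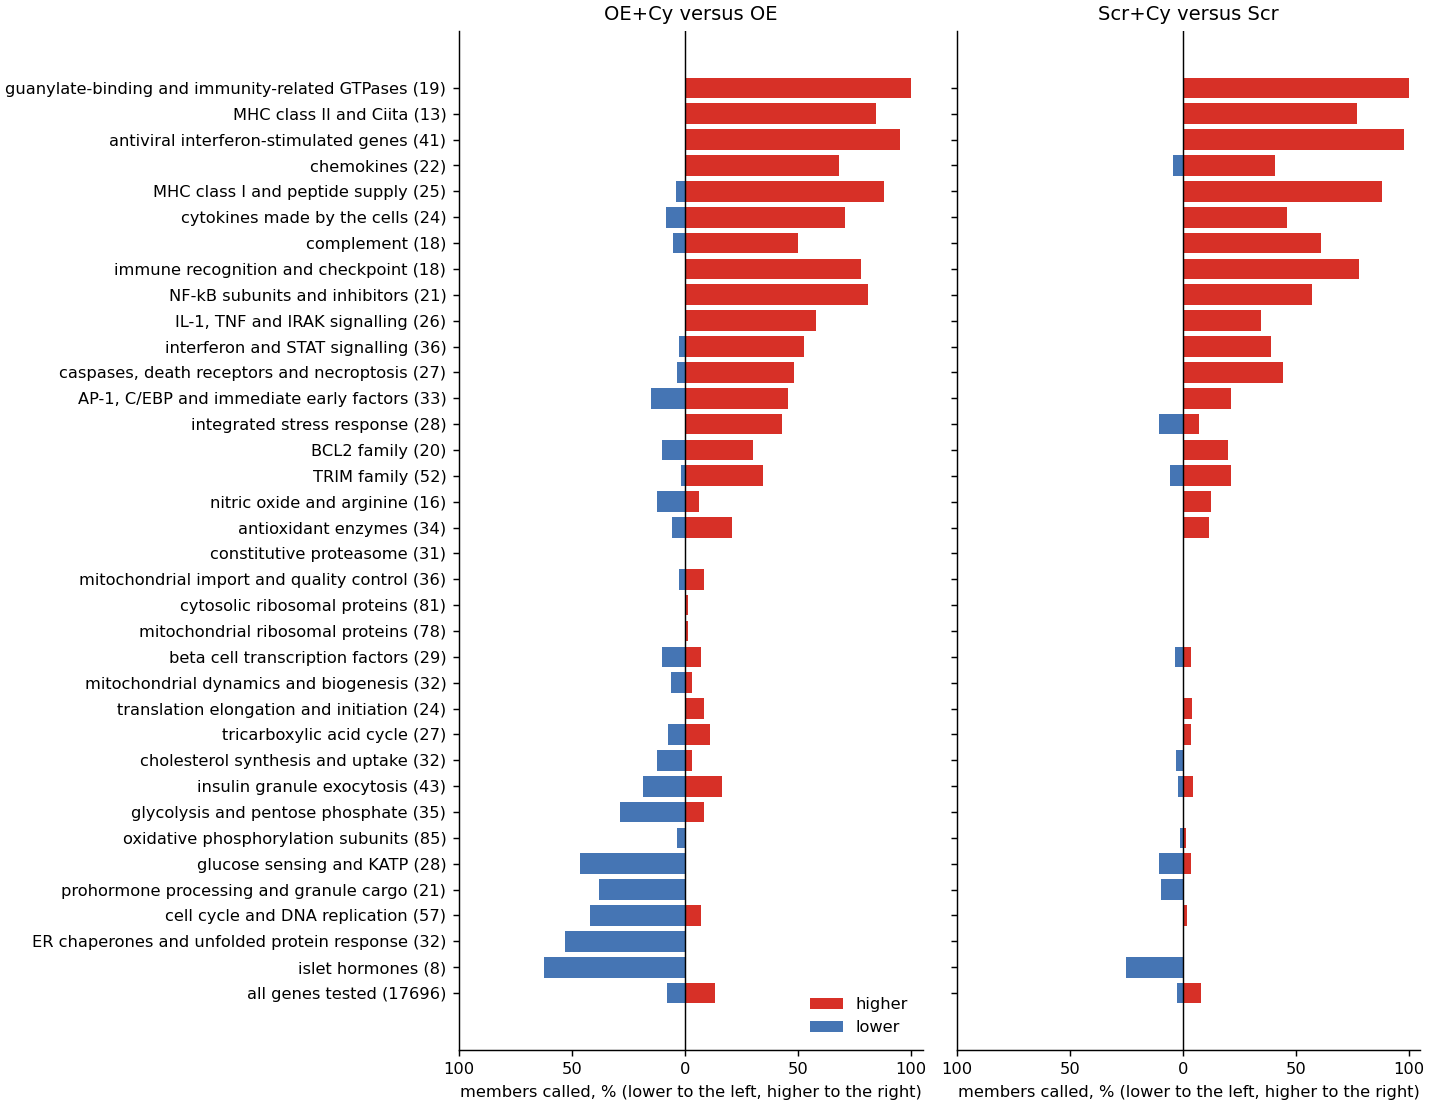
Percent of the tested members of each gene list called higher (red, to the right) or lower (blue, to the left) with cytokines in OE cells and in Scr cells, with the number tested in parentheses and lists ordered by the median log2 fold change in OE. All 19 GTPases were higher in both lines, whereas 17 of 32 ER chaperone genes and 24 of 57 cell cycle genes were lower in OE cells and 0 in Scr cells. Of all genes, 13% were higher and 8.02% lower in OE cells, and 7.88% higher and 2.67% lower in Scr cells.

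ER chaperones fell in OE+Cy. Of 32 genes of ER chaperones and the unfolded protein response, 17 fell and 0 rose (median −0.67), against 8.02% of all genes. In Scr and in ZIP cells 0 of the 32 were called, with medians of 0.09 and 0.06. Fewer of all genes were called lower there than in OE, 2.67% in Scr and 922 of 17696 in ZIP. At an unadjusted p value under 0.05 without a fold change limit, 8 of the 32 were higher and 3 lower in Scr. In ZIP, 6 were higher and 2 lower (share of all genes not counted in either line). The summed level was 20521, 22663, 22964 and 23743 CPM in OE and 14303, 14142, 11515 and 12881 CPM in OE+Cy, with no overlap. Hspa5, the major ER chaperone BiP, was at 2467, 2828, 2906 and 3008 CPM and fell to 1584, 1659, 1299 and 1499 CPM (−0.89 ± 0.11, adjusted p = 3.24e-07). Sdf2l1, a partner of BiP, fell from between 186 and 253 CPM to between 53.9 and 87.2 CPM (−1.56 ± 0.17). Derl3, part of the channel for degradation of ER proteins, fell from 12.8, 17.0, 19.4 and 25.9 CPM to 3.37, 3.32, 2.72 and 4.37 CPM (−2.44 ± 0.25, adjusted p = 2.22e-08). Hsp90b1 fell by 1.05 and Pdia6, a protein disulfide isomerase, by 1.47. The fold of Xbp1, a transcription factor of the unfolded protein response, lay at the limit (−0.60), and its call was lost without OE+Cy replicate 3 (−0.55).

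The difference between lines was itself tested. For 26 of the 32 ER genes the response of OE cells was lower than that of Scr cells at an adjusted p value under 0.05, and for 25 it was lower than that of ZIP cells, against 10.3% and 10.4% of all genes. The difference from Scr was −1.07 ± 0.15 for Hspa5 (adjusted p = 3.87e-05), −1.88 ± 0.24 for Sdf2l1 (adjusted p = 9.63e-06) and −2.51 ± 0.36 for Derl3 (adjusted p = 4.01e-05). Before treatment, the mean level of Hspa5 was 1785 CPM in Scr and 2257 CPM in ZIP, both under the OE libraries. After treatment it was 2015 CPM in Scr and 2542 CPM in ZIP, above the OE+Cy libraries.

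The integrated stress response, which slows translation and raises ATF4 and CHOP targets, went the other way. Of its 28 genes, 12 rose and 0 fell in OE+Cy (median 0.51, or 0.41 with undetected genes at their bound), compared with 13% of all genes higher. In Scr cells 2 rose and 3 fell (median −0.16), and in ZIP cells 3 rose and 1 fell (median −0.01). Of all genes, 7.88% rose and 2.67% fell in Scr, and 1289 rose and 922 fell of 17696 in ZIP. The response was higher in OE than in Scr cells for 18 of the 28 and than in ZIP cells for 13, against 9.64% and 10.2% of all genes, and lower for 0 in both. Atf3, a stress-induced transcription factor, was at 4.23, 6.31, 3.50 and 4.32 CPM in OE and at 49.8, 51.8, 59.1 and 52.3 CPM in OE+Cy (3.53 ± 0.18, adjusted p = 4.82e-14). Ddit3, which encodes CHOP, rose from 14.1, 38.8, 21.4 and 23 CPM to 44, 75.9, 83.9 and 63.9 CPM (1.46 ± 0.24, adjusted p = 2.85e-05). OE replicate 2 was the highest untreated library for Ddit3 and for the CHOP target Trib3, yet the groups did not overlap for either. Trib3 rose by 1.72 ± 0.26 and Ppp1r15a, a phosphatase subunit that reverses the translational block, by 0.85 ± 0.10. Atf4 itself was at 320 to 539 CPM and 408 to 554 CPM and was not called (0.23 ± 0.15, adjusted p = 0.223). The difference from the Scr response was 1.85 ± 0.27 for Atf3 (adjusted p = 4.09e-05), 1.35 ± 0.35 for Ddit3 (adjusted p = 0.00722) and 2.26 ± 0.37 for Trib3 (adjusted p = 1.62e-04).

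**Figure D3:**
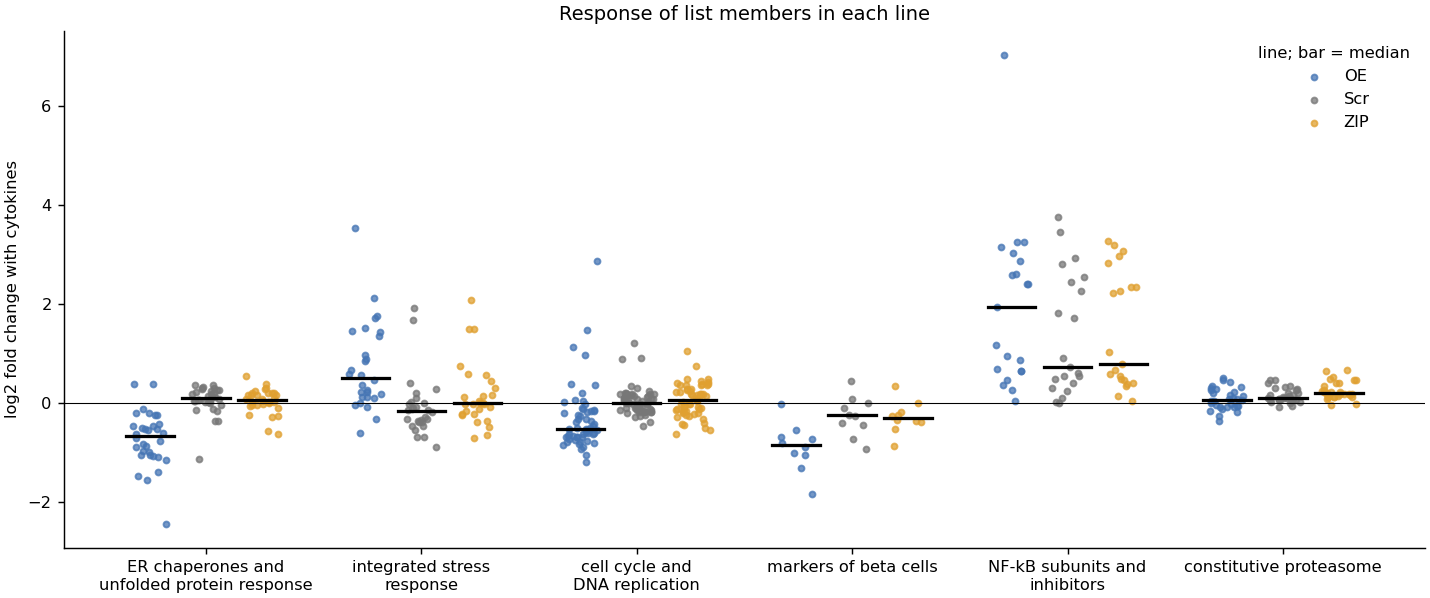
Log2 fold change with cytokines of each tested member of 6 gene lists in OE (blue), Scr (grey) and ZIP (yellow) cells, with a bar at the median. The medians in OE cells are −0.67 for ER chaperones, 0.51 for the integrated stress response, −0.52 for cell cycle genes and −0.85 for β cell markers, and those in the other lines lie nearer to 0, except for the proteasome, which is near 0 in all.

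Insulin gene expression fell by less than 2-fold. Ins2 was at 19147, 18856, 17630 and 19882 CPM in OE and at 12743, 9742, 8592 and 12200 CPM in OE+Cy (−0.80 ± 0.11, adjusted p = 1.82e-06). Ins1 fell from 6737, 7547, 7700 and 8709 CPM to 5001, 4475, 3471 and 5696 CPM (−0.72 ± 0.14, adjusted p = 1.23e-04), and OE+Cy replicate 3 was the lowest library for both. Iapp, which encodes amylin and is stored with insulin, ranged from 10779 to 12129 CPM in OE and from 10270 to 12740 CPM in OE+Cy and was not called (−0.01 ± 0.07, adjusted p = 0.913). It rose by 0.45 ± 0.07 in Scr and 0.35 ± 0.07 in ZIP cells, under the fold change limit. For Iapp the OE response differed by −0.47 ± 0.10 from Scr (edgeR adjusted p = 0.00198) and by −0.37 ± 0.10 from ZIP (adjusted p = 0.0121). The Iapp differences were not refitted with other settings. In all, 5 of 8 islet hormone genes fell and 0 rose. The remaining 3 that fell were Gcg (−1.35 ± 0.37), Sst (−2.16 ± 0.62, at most 1.93 CPM) and Ppy (−1.11). The response of OE cells differed from that of Scr cells by −0.56 ± 0.15 for Ins2 (adjusted p = 0.0113) and by −0.71 ± 0.19 for Ins1 (adjusted p = 0.0104). Against ZIP cells neither difference was called (−0.41 ± 0.15, adjusted p = 0.0611, for Ins2 and −0.37 ± 0.19, adjusted p = 0.184, for Ins1). That for Ins2 was called with the replicate block (adjusted p = 0.0189), with DESeq2 (adjusted p = 0.0389) and without OE+Cy 1, OE+Cy 4 or ZIP+Cy 3 (adjusted p from 0.0174 to 0.0424). Without OE 1, Scr 3 and ZIP 4 the difference for Ins2 was no longer called (−0.47, adjusted p = 0.0600).

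Of 29 β cell transcription factors, 3 fell and 2 rose (median −0.05), beside 8.02% of all genes lower and 13% higher. Pdx1, which activates the insulin gene, was at 590, 614, 672 and 631 CPM in OE and at 354, 332, 307 and 355 CPM in OE+Cy (−0.90 ± 0.06, adjusted p = 2.08e-11). Mafa, a marker of mature β cells, fell from 643, 717, 749 and 754 CPM to 378, 413, 268 and 372 CPM (−1.0 ± 0.11, adjusted p = 9.52e-08). For both genes all OE+Cy libraries were under all OE libraries. Bach2 fell by 1.42 ± 0.20. Rfx6 rose by 0.65 ± 0.08 and lost its call without OE+Cy replicate 3. Nkx6-1 was lower in every OE+Cy library (105 to 120 CPM against 164 to 168 CPM) but stayed under the fold change limit (−0.54 ± 0.07). Beyond the Scr response, Pdx1 was lower by −0.79 ± 0.09 (adjusted p = 1.82e-06) and Mafa by −0.59 ± 0.16 (adjusted p = 0.00919). Against ZIP, the difference for Pdx1 was −0.66 ± 0.09 (adjusted p = 1.46e-05).

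Glucose sensing and receptor genes fell more often than they rose. Of 28 genes, 13 fell and 0 rose (median −0.48), where 8.02% of all genes were lower and 13% higher. Slc2a2, the glucose transporter GLUT2, was at 68.8, 99.2, 110 and 93.1 CPM in OE and at 34.1, 41.0, 40.3 and 33.8 CPM in OE+Cy (−1.31 ± 0.25, adjusted p = 1.38e-04). Prlr, the prolactin receptor, fell from 743, 798, 799 and 837 CPM to 352, 232, 132 and 180 CPM (−1.83 ± 0.22, adjusted p = 3.83e-07). For Prlr the response differed from that of Scr cells by −1.82 ± 0.31 (adjusted p = 2.16e-04). Cckar, the cholecystokinin receptor, fell by 1.87 ± 0.25 and Ucn3, a peptide of mature β cells, by 1.84 ± 0.20. G6pc2, the islet glucose-6-phosphatase, fell from between 1807 and 1957 CPM to between 1027 and 1436 CPM (−0.68 ± 0.09), which differed from the Scr response by −0.77 ± 0.13 (adjusted p = 2.64e-04). The genes of the KATP channel itself, Kcnj11 and Abcc8, were not called.

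Genes of granule cargo fell in part, and those of exocytosis moved in both directions. Of 21 genes of prohormone processing and granule cargo, 8 fell and 0 rose (median −0.49), and 5 fell without OE+Cy replicate 3. Over all genes, 8.02% were lower and 13% higher. Npy was at 699, 822, 843 and 843 CPM and fell to 337, 293, 209 and 289 CPM (−1.51 ± 0.11, adjusted p = 1.19e-10). Scg2, a granin, fell from between 5719 and 6814 CPM to between 2805 and 3109 CPM (−1.11 ± 0.07), the zinc transporter Slc30a8 by 1.05 ± 0.23 and Cltrn, which encodes collectrin, by 1.11 ± 0.13. The convertases Pcsk1 and Pcsk2 and the granins Chga and Chgb were not called. Among 43 exocytosis genes, 7 rose and 8 fell (median −0.16), in both directions, where over all genes 13% were higher and 8.02% lower. Rab3a, the GTPase of secretory granules, fell from between 89.7 and 99.6 CPM to between 37.9 and 46.5 CPM, and its effector Rph3a by 1.30 ± 0.26, while the syntaxin gene Stx1a was higher by 0.74.

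Cell cycle genes fell in OE+Cy. Of 57 genes of the cell cycle and DNA replication, 24 fell and 4 rose (median −0.52), where 8.02% of all genes were lower and 13% higher. The counts were 0 lower and 1 higher in Scr cells and 1 lower and 2 higher in ZIP cells. Of all genes, 2.67% were lower and 7.88% higher in Scr, and 922 were lower and 1289 higher of 17696 in ZIP. At an unadjusted p value under 0.05 without a fold change limit, 13 of the 57 were lower and 10 higher in Scr. In ZIP, 12 were lower and 20 higher (share of all genes not counted in either line). The summed level of the 57 genes was 10874, 11174, 11232 and 11507 CPM in OE and 8136, 8118, 7491 and 8413 CPM in OE+Cy. Rrm2, a subunit of the reductase that makes deoxynucleotides, was at 164, 171, 168 and 190 CPM and fell to 85.1, 78.0, 63.1 and 79.2 CPM (−1.18 ± 0.10, adjusted p = 2.06e-09). Cdc6, which licenses replication origins, fell by 1.06 ± 0.11. Mki67, the proliferation marker, fell from 1783, 1907, 1841 and 1905 CPM to 977, 1035, 873 and 1035 CPM (−0.92 ± 0.08). Cdkn1a, Cdk6 and Ccnd1 were among the genes that rose. Cdkn1a, the inhibitor p21, was at 72.2, 100, 77.6 and 84.7 CPM and then at 214, 206, 166 and 146 CPM (1.13 ± 0.13, adjusted p = 1.05e-07). Ccnd1, at most 1.88 CPM, lost its call in 3 of the 8 fits that left out 1 library.

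For 39 of the 57 cell cycle genes the response was lower in OE than in Scr cells, and for 44 lower than in ZIP cells, against 10.3% and 10.4% of all genes, while it was higher for 1 in each case. The difference from Scr was −1.26 ± 0.15 for Rrm2 (adjusted p = 4.3e-06), −1.22 ± 0.16 for Cdc6 (adjusted p = 1.51e-05) and −0.55 ± 0.11 for Mki67 (adjusted p = 0.00119). Mki67 was also lower after cytokines in Scr cells, by −0.37. For Cdkn1a the difference from Scr was 0.83 ± 0.18 (adjusted p = 0.00183).

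Glycolysis genes were lower, in their sum, in every OE+Cy library than in the OE library of the same number. The sum of OE replicate 1 nonetheless lay within the treated range. Of 35 genes, 10 fell and 3 rose (median −0.17), compared with 0 lower in Scr (median −0.18) and 10 lower in ZIP (median −0.41). In Scr the sum also fell for every number, from 11854, 6276, 7881 and 10786 CPM untreated to 9919, 5297, 6621 and 9351 CPM treated. Over all genes, 8.02% were lower and 13% higher in OE, 2.67% were lower in Scr and 922 of 17696 were lower in ZIP. The summed level was 4596, 7795, 7175 and 7622 CPM in OE and 4178, 4811, 4439 and 4654 CPM in OE+Cy. Ldha, lactate dehydrogenase A, was at 15.4, 108, 97.9 and 130 CPM in OE and at 6.32, 20.2, 12.9 and 18.3 CPM in OE+Cy (−2.60 ± 0.54, adjusted p = 3.16e-04). Slc16a3, the lactate exporter MCT4, was at 15.6, 105, 107 and 128 CPM and at 4.13, 17.8, 9.73 and 13.5 CPM (−2.98 ± 0.58, adjusted p = 1.68e-04). OE replicate 1 lay within the treated range for Ldha and Slc16a3, but above OE+Cy replicate 1, the library of the same number, for both. Bnip3 had the same pattern, with 34.8, 166, 186 and 207 CPM in OE and 22.2 to 39.5 CPM in OE+Cy (−2.20 ± 0.44), and Bnip3l fell by 0.84 ± 0.23, with 51.0 CPM in OE replicate 1 against 43.9 to 59.9 CPM in OE+Cy. Over the fits that left out 1 library, the log2 fold change lay between −2.95 and −2.35 for Ldha, between −3.33 and −2.71 for Slc16a3 and between −2.53 and −2.0 for Bnip3, and all were called. Without OE replicate 1, 13 glycolysis genes fell and 3 rose. Gapdh, often used as a reference, fell from between 307 and 516 CPM to between 246 and 309 CPM (−0.63 ± 0.16), and its call was lost without OE replicate 2 (−0.53), OE replicate 4 or OE+Cy replicate 1. The genes that rose were Pfkfb3, Rpia and Hk2. Pfkfb3, which makes an activator of glycolysis, went from 16.9, 101, 64.9 and 68.8 CPM to 132, 155, 186 and 132 CPM, and Hk2 rose from at most 0.190 CPM to between 0.759 and 1.39 CPM.

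**Figure D4:**
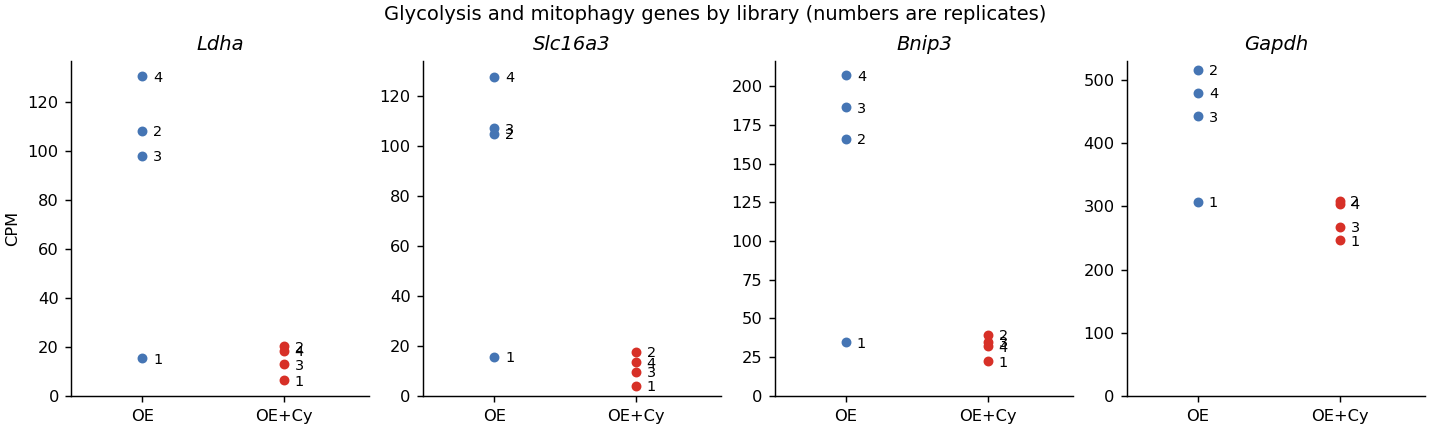
Level in CPM, on linear axes that start at 0, of Ldha, Slc16a3, Bnip3 and Gapdh in each of the 4 OE (blue) and 4 OE+Cy (red) libraries, with the replicate number beside each point. OE replicate 1 sits within the treated range for each of these genes, and above OE+Cy replicate 1 for each.

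Few mitochondrial genes passed the fold change limit, where 13% of all genes were called higher and 8.02% lower. Of 85 subunits of oxidative phosphorylation, 3 fell and 0 rose (median −0.19), and 5 fell without OE replicate 1. Without that limit, 49 were lower and 1 higher at an unadjusted p value under 0.05 (share of all genes not counted). Their summed level was 7437 to 7968 CPM in OE and 6315 to 7041 CPM in OE+Cy, so the groups did not overlap. Cox6a2 (−1.84 ± 0.16) and Ndufa1 (−0.61) were among them. Of 36 genes of import and quality control, 3 rose and 1 fell (median 0.03). Hspa9 and Lonp1, a chaperone and a protease of the matrix, rose by 0.75 ± 0.09 and 0.71 ± 0.12, Timm10 rose by 0.61, and Timm17b fell by 0.68 ± 0.09. Timm23, the inner membrane translocase, was at 49.2 to 55.4 CPM and 46.7 to 51.6 CPM and was not called (−0.11 ± 0.06, adjusted p = 0.168). Of 32 genes of mitochondrial dynamics and biogenesis, 1 rose and 2 fell, and of 78 mitochondrial ribosomal protein genes 1 rose. In the tricarboxylic acid cycle, 3 of 27 genes rose and 2 fell, close to the shares over all genes. Acod1, which turns cycle intermediates into itaconate, rose from at most 0.131 CPM to between 73.4 and 133 CPM (10.99, or 12.06 without OE replicate 4), and Me1 by 0.81 ± 0.09, while Fh1 fell by 0.83 ± 0.14. Mdh1 lay at the fold change limit (−0.59) and lost its call in 3 of the 8 fits that left out 1 library, and also with DESeq2, its size factors, filterByExpr and only the groups compared (−0.58 in each).

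Other groups were mixed, beside 13% of all genes higher and 8.02% lower. Of 33 AP-1, C/EBP and immediate early factors, 15 rose and 5 fell (median 0.58, or 0.37 with undetected genes at their bound). Cebpd rose from 0.635, 1.01, 1.32 and 1.54 CPM to 7.37, 9.21, 12.4 and 15.6 CPM (3.31 ± 0.23), Jun and Junb by 2.09 and 2.18. Dusp6, a phosphatase that follows ERK activity, fell from between 58.4 and 69.2 CPM to between 12.5 and 29.3 CPM (−1.87 ± 0.22, adjusted p = 1.90e-07), and Egr1 by 0.94. Of 34 antioxidant genes, 7 rose and 2 fell. Txnip, an inhibitor of thioredoxin, rose from between 20.3 and 29.5 CPM to between 69.6 and 159 CPM (2.24 ± 0.18) and the haem oxygenase Hmox1 by 2.02 ± 0.17, while Txnrd2, the mitochondrial thioredoxin reductase, fell by 1.01 ± 0.09. Of 52 TRIM genes 18 rose and 1 fell (median 0.14). Of 32 cholesterol genes 1 rose and 4 fell, of 24 translation factors 2 rose (Eif4ebp1 and Wars), and of 81 cytosolic ribosomal protein genes 1 rose (Rps20).

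By fitted fold change, the 10 largest rises among called genes with a mean of at least 5 CPM and no overlap between groups were Cxcl11, Gbp8, Gbp11, Gvin1 and H2-Ab1 above together with 5 predicted or duplicated genes. For genes at or near 0 in OE the fitted fold depends on the prior count, and by the lower bound the order differs, with Tnf (at least 591-fold) above Cxcl11 and Gbp11. Among them, 9930111J21Rik2 and Serpina3g were undetected in OE and at least 160-fold and 163-fold higher, Serpina3f at least 1002-fold higher and Gm4841 at least 1423-fold higher. Gm12185 rose from at most 0.110 CPM to between 86.5 and 102 CPM (11.46, or 14.50 without OE replicate 3). Serpina3f overlaps Serpina3g, and the others have near copies, so their reads may be divided between genes. The largest falls were smaller and included secreted and membrane proteins. F13a1, a clotting factor subunit, was at 11, 9.74, 13.2 and 13 CPM in OE and at 2.05, 1.93, 1.48 and 1.70 CPM in OE+Cy (−2.71 ± 0.22, adjusted p = 4.67e-10). Log2 fold changes were −2.67 ± 0.26 for Dkk2, an inhibitor of WNT signalling, −2.43 ± 0.27 for Nmbr, the neuromedin B receptor, and −2.29 ± 0.36 for Cthrc1. Pappa2, a protease of IGF-binding proteins, was the most abundant of these genes and fell from 1554, 1201, 1182 and 936 CPM to 518, 255, 129 and 126 CPM (−2.25 ± 0.34), or by 2.84 without OE+Cy replicate 1. Kcnk9, a potassium channel, fell from between 260 and 332 CPM to between 39.2 and 101 CPM. Slc14a2, Fam20a and Cldn11 fell by 2.19 ± 0.31, 2.13 ± 0.17 and 2.12 ± 0.21.

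The genes that the study measured by PCR were chosen with these libraries in view, so their counts are not independent evidence. Of the 11 in the table, Mapt (−1.13 ± 0.15), Eya1 (−0.72 ± 0.10) and Brsk2 (−0.62 ± 0.18) fell, and Perp (0.69 ± 0.09), Gpx1 (0.63 ± 0.08) and Nrg1 (2.64 ± 0.26) rose. Mapt, which encodes the microtubule protein tau, was at 89.7, 115, 146 and 143 CPM in OE and at 44.6, 59, 56.6 and 65 CPM in OE+Cy. Brsk2 lost its call without OE replicate 2 or without OE+Cy replicate 1 (−0.58 each). The log2 differences of those not called were −0.22 for Glrx, −0.26 for Acvr2b, −0.32 for Sort1 and 0.44 for Rest, and Rest passed the threshold without OE replicate 3 (0.66). Myrip was near the detection limit, at 0.136 CPM or less, so no fold is given for it, and it passed the threshold only where OE+Cy replicate 1, the 1 treated library above 0, was left out. The reference genes Actb (−0.07 ± 0.06), Tbp (−0.19 ± 0.07) and Hprt (−0.26 ± 0.05) were not called. Hprt was still lower in every OE+Cy library (122 to 125 CPM against 137 to 164 CPM, edgeR adjusted p = 2.85e-04), under the fold change limit.

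Set beside the Scr line, cytokines called 1395 genes higher (7.88%) and 472 lower (2.67%) there. Of the genes called higher in OE cells, 977 were also called higher in Scr cells, which is 42.5% of the OE genes and 70.0% of the Scr genes. Of the genes called lower, 228 were shared, which is 16.1% of the OE genes and 48.3% of the Scr genes. Opposite calls were rare, with 21 genes higher in OE and lower in Scr and 11 the other way. Over 12728 genes with a mean of at least 1 CPM in OE or OE+Cy, log2 fold changes in OE correlated with those in Scr at r = 0.88. With those in ZIP, r was 0.87. The genes are not independent replicates and come from 1 sequencing series. Genes at that level only in Scr or ZIP cells were left out, and the weight of the most strongly induced genes in r was not tested. Tested directly, the response of OE was higher than that of Scr for 1706 genes (9.64%) and lower for 1831 (10.3%) at an adjusted p value under 0.05. Against ZIP, it was higher for 1798 (10.2%) and lower for 1849 (10.4%). In the same direction against both lines, which share the OE libraries, were 1263 and 1394 genes.

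**Figure D5:**
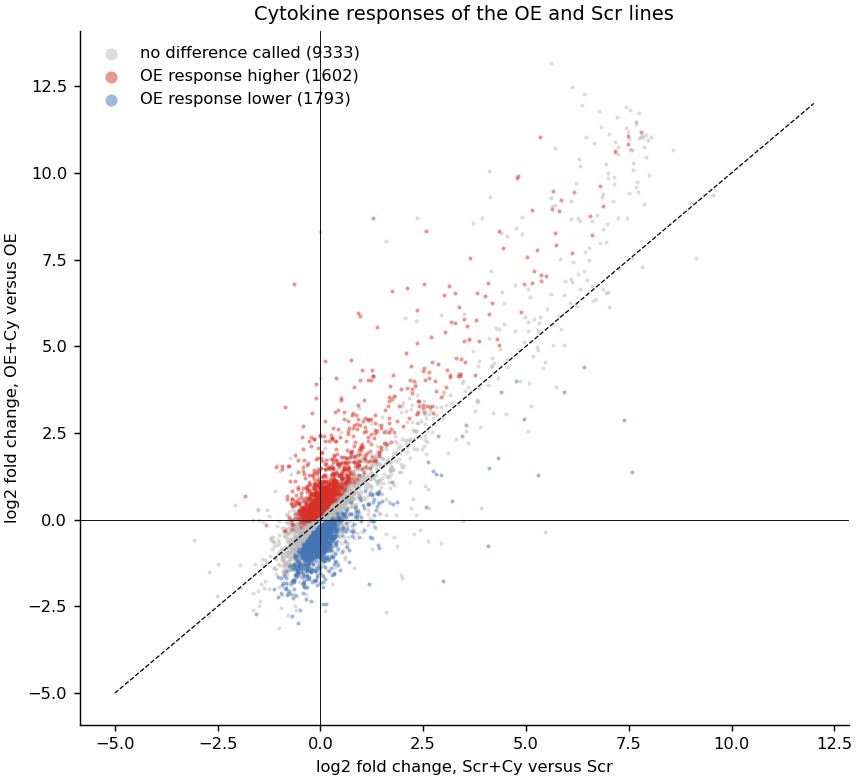
Log2 fold change with cytokines in OE cells (vertical axis) against that in Scr cells (horizontal axis) for 12728 genes with a mean of at least 1 CPM in OE or OE+Cy, with the dashed line marking equal responses. For 1602 genes (red) the response was higher and for 1793 (blue) lower in OE cells at an adjusted p value under 0.05, with red points above the line and blue points under it.

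Genes of interferon signalling differed between the lines, not all in one direction. Over all genes, the response was higher in OE than in Scr cells for 9.64% and lower for 10.3%. Of 36 genes of the interferon and STAT list, the response was higher in OE than in Scr cells for 15 and lower for 1. Of 25 MHC class I genes it was higher for 10 and lower for 5, among them H2-K1 (−0.71 ± 0.17, adjusted p = 0.00376). The response of Irf1 was higher than in Scr cells by 1.28 ± 0.13 (adjusted p = 1.09e-06) and that of Psmb8 by 2.49 ± 0.36 (adjusted p = 4.33e-05). For Irf1 the mean went from 28.3 to 412 CPM in Scr and from 29.8 to 401 CPM in ZIP. For Nfkbia the difference of 0.32 ± 0.15 (adjusted p = 0.138) did not pass the threshold.

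For the most strongly induced genes the difference between lines had a large standard error. Untreated libraries held traces of induced transcripts that differed between lines. Summed over the 19 GTPases, untreated libraries held 0.13% to 0.239% of the treated mean in OE, 0.488% to 1.67% in Scr and 0.318% to 3.35% in ZIP. Whether these traces are expression or carry-over was not tested. The difference from Scr was 3.74 ± 2.32 for Nos2 (adjusted p = 0.287) and 3.11 ± 1.20 for Cxcl10 (adjusted p = 0.0702), neither past the threshold. Against ZIP, differences were called for Nos2 (5.04 ± 1.12, adjusted p = 0.00248), Cxcl10 (4.05 ± 1.12, adjusted p = 0.0121) and Gbp2 (4.45 ± 1.21, adjusted p = 0.011). Without ZIP replicate 4 none of the 3 was called (2.86, adjusted p = 0.241, for Nos2, 2.01, adjusted p = 0.145, for Cxcl10 and 2.17, adjusted p = 0.151, for Gbp2). Levels in treated cells, set side by side, were 704 to 1008 CPM for Nos2 in OE+Cy against a mean of 25.0 CPM in Scr+Cy and 87.8 CPM in ZIP+Cy. For Tnf they were 39.4 to 64.5 CPM in OE+Cy against means of 0.815 and 4.16 CPM.

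Among the largest differences between lines were rises in OE cells of genes that stayed low in the others. Tifa, an adaptor of TRAF6, was at 0.212, 0.299, 0.193 and 0.426 CPM in OE and at 6.50, 18.5, 21.3 and 23.8 CPM in OE+Cy (5.95 ± 0.41), and its mean stayed at or under 0.375 CPM in both other lines. The difference was 5.04 ± 0.76 from Scr (adjusted p = 6.74e-05) and 5.75 ± 1.38 from ZIP (adjusted p = 0.00436), and the latter was not kept without ZIP replicate 2 (adjusted p = 0.0736). Defb1, an antimicrobial peptide, rose from at most 0.196 CPM to between 4.76 and 16.0 CPM, with a difference from Scr of 4.91 ± 0.70 (adjusted p = 3.58e-05). Mylk2, a myosin kinase, reached 7.82 to 26.8 CPM, at least 173-fold higher, against a mean of 1.87 CPM in Scr+Cy. Plau, the urokinase gene, rose from at most 0.599 CPM to between 6.74 and 12.8 CPM and stayed under 0.1 CPM in the other lines. Its difference from ZIP was 5.49 ± 1.08 (adjusted p = 8.48e-04), and it was not kept without ZIP replicate 1 (adjusted p = 0.390). Axl, a receptor that clears dying cells, rose to between 3.68 and 15.0 CPM (5.54 ± 0.98, or 6.41 without OE replicate 1), and its difference from ZIP of 6.78 ± 1.47 was likewise not kept without ZIP replicate 1 (adjusted p = 0.169).

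In the opposite direction, C4b, a complement component, had the largest negative difference. It was at 28.1, 22.6, 27.3 and 26.3 CPM in OE and rose to 45.1, 64.9, 69.3 and 93.3 CPM, whereas its mean went from 0.577 to 109 CPM in Scr and from 0.750 to 64.8 CPM in ZIP. The difference was −6.19 ± 0.57 from Scr (adjusted p = 1.64e-07) and −5.02 ± 0.57 from ZIP (adjusted p = 3.74e-06). Higher untreated levels in OE than in the other lines were also seen for Sp140, A530032D15Rik and C130026I21Rik, near copies on chromosome 1 whose reads may be shared, with untreated levels of 6.47 to 8.76, 2.09 to 3.08 and 10.4 to 13.2 CPM in OE and mean levels of at most 0.509 CPM in the other lines. Cldn11, a tight junction gene, fell by 2.12 in OE, which differed from ZIP by −2.58 ± 0.30 (adjusted p = 4.45e-06). Nmbr was near absent from the other lines before treatment (14.0 to 32.0 CPM in OE against means of 0.141 and 0.185 CPM), and its difference from Scr of −2.56 ± 0.79 (adjusted p = 0.0236) was not kept without Scr+Cy replicate 2, 3 or 4 (adjusted p = 0.0527 to 0.0566).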

How the data were processed

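RNA-seq libraries of bulk MIN6 cells were grouped by their titles into 6 groups of 4, and the comparison described is OE+Cy with OE. Per the study's methods, the authors aligned reads to mm10 with STAR, assigned them to RefSeq transcripts in Partek Flow and left out genes whose reads over all libraries came to under 10. The tool versions given in the methods and in the submitters' processing notes differ (the notes give STAR 2.7.8a and Partek 11.0.24.0204), and strand use in counting is not given in the sources used here. The authors deposited estimated counts per gene (expected counts, 30.1% of values not whole) and the same counts scaled by 1 factor per library, a normalized signal that served only as a check. Reads of overlapping genes, antisense genes and near copies could have been divided between them.

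Estimated counts were rounded. All 17696 genes entered 1 edgeR 4.0.16 model (R 4.3.3) of 6 group means with TMM scaling, tested with glmQLFit and glmQLFTest. A response was called where the fold change reached 1.5 and the p value before adjustment was under 0.05. Differences between responses of lines were interaction contrasts of that model, called where the adjusted p value was under 0.05. Adjustment was by Benjamini-Hochberg over all genes, and ± on log2 values is the standard error. The detection limit was 3 reads per library, with folds against 3 reads per library as lower bounds, which cover counting error only. The model was tested on simulated data.

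The gene lists and the libraries described were chosen with earlier results of these data known. Genes were named as the 10 largest rises and 10 largest falls (adjusted p under 0.05, at least 5 CPM, no overlap), up to 4 called members per list, the 6 largest differences between lines in each direction, known response and reference genes, and the study's PCR genes. Chosen after their values were seen were Hspa5, Hsp90b1, Pdia6, Xbp1, Ddit3, Trib3, Ppp1r15a, Atf4, Mki67, Cdkn1a, Iapp, Prlr, G6pc2, Slc30a8, Scg2, Nkx6-1, Tgtp1, Gbp2, B2m, H2-K1, Tap1, Cd74, Icam1, Bbc3, Irak2, Isg15 and Gapdh, and the further genes given with a log2 value alone or named as not called. Gene positions are those of GENCODE on the same build. Comparing promoter motifs between called genes and all genes was void, since under 80% of the genes had a promoter entry. Some genes of the lists are not reported here by name.

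Same-numbered OE and OE+Cy libraries, which share a number and a code in their titles, deviated from their group means together (r = 0.51, 0.374, 0.233 and 0.379 for numbers 1 to 4 over 12670 genes), so the numbers were taken to pair them. The main model held no term for these pairs, so its standard errors and p values leave the pairing out. Alternatives were DESeq2 1.42.0, edgeR with DESeq2's size factors, filtering by filterByExpr, fits restricted to the groups compared, the replicate block, adjusted p values, and leaving out each library or the libraries that stand apart.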

Additional observations from a re-analysis of the deposited data

Results flagged for a closer look

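The 152 genes gave 304 groups of 4 libraries, and groups with very low levels in all 4 libraries were passed over. In 11 groups, 1 library lay far from the other 3. Chance alone gives about 1 in 20 of the groups examined, whose number was not counted. In untreated cells, OE replicate 1 was low for Npy (699 CPM) and Scg2 (5719 CPM), OE replicate 2 was high for Hmox1 (30.9 CPM), and OE replicate 4 was high for Cd74 (0.819 CPM) and Serping1 (0.851 CPM) and low for Nkx6-1 (164 CPM, where the others had 168 CPM). In treated cells, OE+Cy replicate 3 was high for Nos2 (1008 CPM) and Serpina3f (107 CPM) and low for Txnrd2 (12.9 CPM), and OE+Cy replicate 4 was low for Bbc3 (11.5 CPM) and high for Sst (0.577 CPM). Each of these genes was called or not called as before without that library.

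By a test of the difference itself, the response to cytokines differed between OE and Scr cells or between OE and ZIP cells for the genes below, which were examined by name and are not all genes with such a difference. The values are log2 differences of the response of OE minus that of the other line. Among immune and death genes, against Scr, they were 1.28 for Irf1, 2.49 for Psmb8, −0.71 for H2-K1, 1.91 for Irak2, −0.31 for Irak1 and 2.39 for Bid. For stress genes they were 1.85 for Atf3, 1.35 for Ddit3, 2.26 for Trib3, −1.07 for Hspa5, −1.88 for Sdf2l1 and −2.51 for Derl3. For islet genes they were −0.71 for Ins1, −0.56 for Ins2, −0.79 for Pdx1, −0.59 for Mafa, −0.77 for G6pc2 and −1.82 for Prlr, and for cell cycle genes −1.26 for Rrm2, −1.22 for Cdc6, −0.55 for Mki67 and 0.83 for Cdkn1a. The largest differences from Scr were 5.77 for Mylk2, 5.70 for Ifitm3, 5.11 for Trim34a, 5.07 for H2-Aa, 5.04 for Tifa and 4.91 for Defb1 in the positive direction and −6.19 for C4b, −4.00 for A530032D15Rik, −2.61 for Sp140, −2.56 for Nmbr and −2.53 for C130026I21Rik in the negative direction.

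Against ZIP, the differences were 6.78 for Axl, 6.66 for Trim34a, 6.47 for Gbp11, 5.75 for Tifa, 5.62 for Apol6, 5.49 for Plau, 5.04 for Nos2, 4.45 for Gbp2 and 4.05 for Cxcl10 in the positive direction. Those of Nos2, Gbp2 and Cxcl10 were not called without ZIP replicate 4. In the negative direction they were −5.02 for C4b, −2.98 for A530032D15Rik, −2.66 for C130026I21Rik, −2.58 for Cldn11, −2.53 for Sp140, −2.47 for Derl3, −1.06 for Hspa5 and −0.66 for Pdx1. Mylk2, Ifitm3, Trim34a, Gbp11 and Apol6 were at the detection limit in untreated OE cells, so their values depend on the prior count and set no bound. The difference of Trim34a from Scr was not called with the replicate block (5.16, adjusted p = 0.0653), nor in 9 fits that each left out 1 library, which were OE 1, 2 or 3, OE+Cy 3 or 4, Scr 1 or 2, and Scr+Cy 1 or 4 (adjusted p up to 0.424, without Scr 1, where the value was 3.87). That of Ifitm3 was not called without OE 1, 2 or 3 or without Scr 1 or 3 (adjusted p from 0.0518 to 0.143), and that of H2-Aa without Scr 4 (4.72, adjusted p = 0.0513). Against ZIP, the difference of Apol6 was not called without any 1 of the OE libraries, OE+Cy 3 or 4, ZIP 1 or 4, or ZIP+Cy 2 (adjusted p up to 0.145, without ZIP 1). That of Gbp11 was not called without any 1 of the OE libraries, ZIP 2 or 4, or ZIP+Cy 4 (adjusted p up to 0.298, without ZIP 4). With OE 1, Scr 3 and ZIP 4 all left out, none of these 5 differences was called, with adjusted p values of 0.0687 for Trim34a, 0.0899 for Ifitm3, 0.0725 for H2-Aa, 0.192 for Apol6 and 0.355 for Gbp11.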

How the results depend on the processing

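The number of genes called in OE+Cy versus OE was 3720, and it was 3453 with DESeq2, 3226 with filterByExpr and between 3406 and 3913 when 1 library was left out. For the differences from Scr and ZIP (3537 and 3647 genes), leaving out 1 library gave 2819 to 4018 and 2929 to 4119. A limit of 1.5-fold added to the adjusted p value left 1517 and 1512 genes. With the replicate number as a block the counts were 3793, 4492 and 4603. The pairing changed no call of the 171 named genes in OE+Cy versus OE. Among the named differences between lines, those of Iapp left out, it changed only that of Trim34a from Scr (adjusted p = 0.0653) and those of Ins2 and Irak1 from ZIP (0.0189 and 0.0267). With promoters cut to the 250 bases before the start, the shares were 7.13% for GAAANNGAA, 7.02% for TTCNNNGAA and 3.72% for GGGNNTTTC, since the window is shorter. The log2 difference of Iapp, not called, lay between −0.0743 and 0.0196 when 1 library was left out, with a positive sign without OE replicate 1 or OE+Cy replicate 2. Of the gene lists, that of oxidative phosphorylation had 5 called members in place of 3 without OE replicate 1 or with only the groups compared, that of mitochondrial ribosomal proteins 2 in place of 1 without OE replicate 4, without OE+Cy replicate 1 or without both libraries numbered 1, and that of granule cargo 5 in place of 8 without OE+Cy replicate 3. Chosen after seeing the data, leaving out OE 1 and OE+Cy 1 together gave 3812 called genes, and leaving out OE 1, Scr 3 and ZIP 4 together gave 2998 and 3536 differences. Calls near a threshold are given beside the genes, and the cause of these changes was not tested. Folds of genes near 0 in untreated cells are limited by depth.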

Other observations

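Some groups outside the comparisons above held single changes in OE+Cy cells. Of the cholesterol genes, Stard4, which carries sterol between membranes, fell from 88.7, 121, 122 and 120 CPM to 61.5, 72.0, 69.8 and 73.9 CPM (log2 fold change −0.70 ± 0.09, edgeR adjusted p = 5.21e-07), and Tm7sf2, a sterol reductase, fell by 0.69 ± 0.16. Nr1h2, the sterol-sensing nuclear receptor LXRβ, rose from between 20.8 and 23.1 CPM to between 34.2 and 40.5 CPM. Trim9, a neuronal ubiquitin ligase also present in islets, fell from between 27.4 and 34.8 CPM to between 10.7 and 16.7 CPM. Pecam1, listed as an endothelial marker, rose from at most 1.39 CPM to between 1.61 and 3.93 CPM, while the summed level of its list stayed between 1.90 and 6.26 CPM in OE and between 2.64 and 6.25 CPM in OE+Cy.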
